A study of Bos taurus with 15 samples.

Results

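The genes described here encode the contractile apparatus of smooth muscle, namely ACTA2, TAGLN, CNN1, MYL9, MYH11 and DES. These 6 genes were selected on these data, because ACTA2 was among the largest decreases in pregnant cows on day 18, and the day 18 values are therefore given as a description without a test. A probe was found by gene symbol or full gene name for 5 of the 6 genes, with 7 probes in all, whereas 6763 gene symbols had a probe on the array. MYH11, the smooth muscle myosin heavy chain, is not analyzed here, because no probe carried its symbol or name.

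Caruncular endometrial tissue of Japanese Black cows was profiled on a custom bovine Agilent array in 1 color, with 1 array per sample. The groups were 4 non-pregnant samples of day 15 of the estrous cycle (NP15), 3 pregnant samples of day 15 (P15), 4 non-pregnant samples of day 18 (NP18) and 4 pregnant samples of day 18 (P18), where day 1 was the day of artificial insemination. Pregnancy was judged by eye from the presence of trophoblast, and no other treatment of these cows is described. The age of the cows was not given in the sources used here.

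Smooth muscle cells contract when calcium signaling activates the myosin light chain kinase, which phosphorylates the regulatory light chain so that myosin pulls on actin filaments. ACTA2 is the actin isoform of vascular smooth muscle and also marks pericytes and myofibroblasts, CNN1 and TAGLN bind these filaments, MYL9 is the regulatory light chain, and DES forms the intermediate filaments that hold the apparatus together. In the endometrium, such cells lie mainly in the walls of blood vessels, and the myometrium beneath it is a thick layer of smooth muscle. In bulk tissue, fewer cells of a type and less RNA per cell cannot be told apart.

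The sequences of the 60-base probes are shown for the genes the values turn on, because the symbols of 3 of the 7 probes rest on a description of similarity alone and because actins are closely related. The first probe of ACTA2 (ABR2032) carried the gene symbol and is shown whole, and the others are shown by their last 30 bases (positions 31 to 60), with the polyadenylation hexamer AATAAA in capitals.
ACTA2, probe ABR2032: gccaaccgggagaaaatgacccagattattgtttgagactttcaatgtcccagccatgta
ACTA2, probe ABR8979: tttttAATAAAtctgagatatggtacctgt
CNN1, probe A_73_116127: acagcggcgtttgtgacgcgagcactttct
DES, probe ABR493: cagcaagccaggcaggtaactggggacata
DES, probe ABR7773: actgagtgggtctgggcagggtgcgccctt
Of the 7 probes, 1 held AATAAA on the strand as deposited, the second ACTA2 probe, described as similar to aortic smooth muscle actin (ABR8979), and none held ATTAAA. Of all 15208 probes, 11.3% held AATAAA. The 2 ACTA2 probes and the probes of the other actins, calponins, transgelins and myosins shared no run of bases longer than 10 on either strand. The longest run that any other probe of the array shared with a member's probe was 16 bases (MYL9), and it was 14 bases for both ACTA2 probes. Which transcripts a probe can bind was not checked against transcript sequences.

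Levels are given as the signal of a probe divided by the median signal of its array over all probes other than controls, as in the methods, and are compared between arrays for 1 probe at a time. Slides and scan days each held arrays of a single group, so that they and the group cannot be told apart in any comparison. The NP15 arrays spanned 3 scan days and those of P15, NP18 and P18 a single day per group. Signals counted as well above background began at 9.60 to 28.3 on the day 15 arrays and at 53.5 to 75.03 on the day 18 arrays, so the limit of detection was higher on day 18. Trophoblast marker RNA (9 genes with a probe, among them IFNT2, TKDP1, TKDP4, PAG2 and PAG11) stood out in pregnant cows of day 18. The summed level of these genes was 0.647 in P18 replicate 1, 137 in replicate 2, 80.7 in replicate 3 and 573 in replicate 4, and from 0.452 to 1.60 in NP18. The sum of P18 replicate 1 lay within the range of NP18, whereas its mean log2 level over the tested genes of the list, -4.19, lay above that of every NP18 array (-5.27 to -4.58). TKDP4 was well above background in all 4 arrays of P18 and 0 of NP18. Of the 9 genes, only ELF5 was well above background in any NP18 array, in all 4. ELF5 was also well above background in every day 15 array, so the NP18 sums do not stand for trophoblast RNA alone. Day 18 differences are also given without P18 replicate 1 for ACTA2 (ABR2032), CNN1, TAGLN and DES (ABR493). For these probes, leaving it out gave the lowest value of all single arrays left out.

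ACTA2 was lower in every pregnant sample of day 18 than in every non-pregnant sample of that day with both of its probes. With the brighter probe (ABR8979), the level was 89.3, 87.1, 106 and 135 in NP15 replicates 1 to 4, and 47.02, 87.8 and 45.2 in P15 replicates 1 to 3. On day 18 it was 99.1, 43.2, 114 and 330.3 in NP18, and 38.9, 18.5, 36.2 and 9.27 in P18. NP18 replicate 4 was the highest of all 15 arrays and P18 replicate 4 the lowest. The group means were 104 ± 22.0 in NP15 (SD, n = 4), 60.01 ± 24.1 in P15 (n = 3), 147 ± 126 in NP18 (n = 4) and 25.7 ± 14.2 in P18 (n = 4). The mean log2 level was lower by a log2 difference of -2.35 (limma SE 0.54) in P18 than in NP18, or 5.09-fold. This difference ran from -2.81 without NP18 replicate 2 to -1.83 without NP18 replicate 4.

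The other ACTA2 probe (ABR2032) had levels of 4.70, 5.99, 2.38 and 2.23 in NP15, and 1.56, 4.03 and 2.38 in P15. In NP18 they were 3.30, 2.12, 7.98 and 14.1, and in P18 they were 1.08, 0.239, 0.244 and 0.251. P18 replicates 2 to 4 lay close together, and replicate 1, which had the lowest trophoblast sum of P18, was above them. The log2 difference of day 18 was -3.90 (SE 0.62), a 15.0-fold lower mean, and -4.44 without P18 replicate 1. On day 15 the ranges of the pregnant and non-pregnant groups overlapped with both probes. The log2 difference of P15 minus NP15 was -0.84 (SE 0.59, limma adjusted p = 0.528, exact permutation p = 0.114) with the brighter probe and -0.50 (SE 0.67, adjusted p = 0.774, exact permutation p = 0.400) with the other. The exact two-sided test of 3 arrays against 4 cannot give a p below 0.0571.

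**Figure D1:**
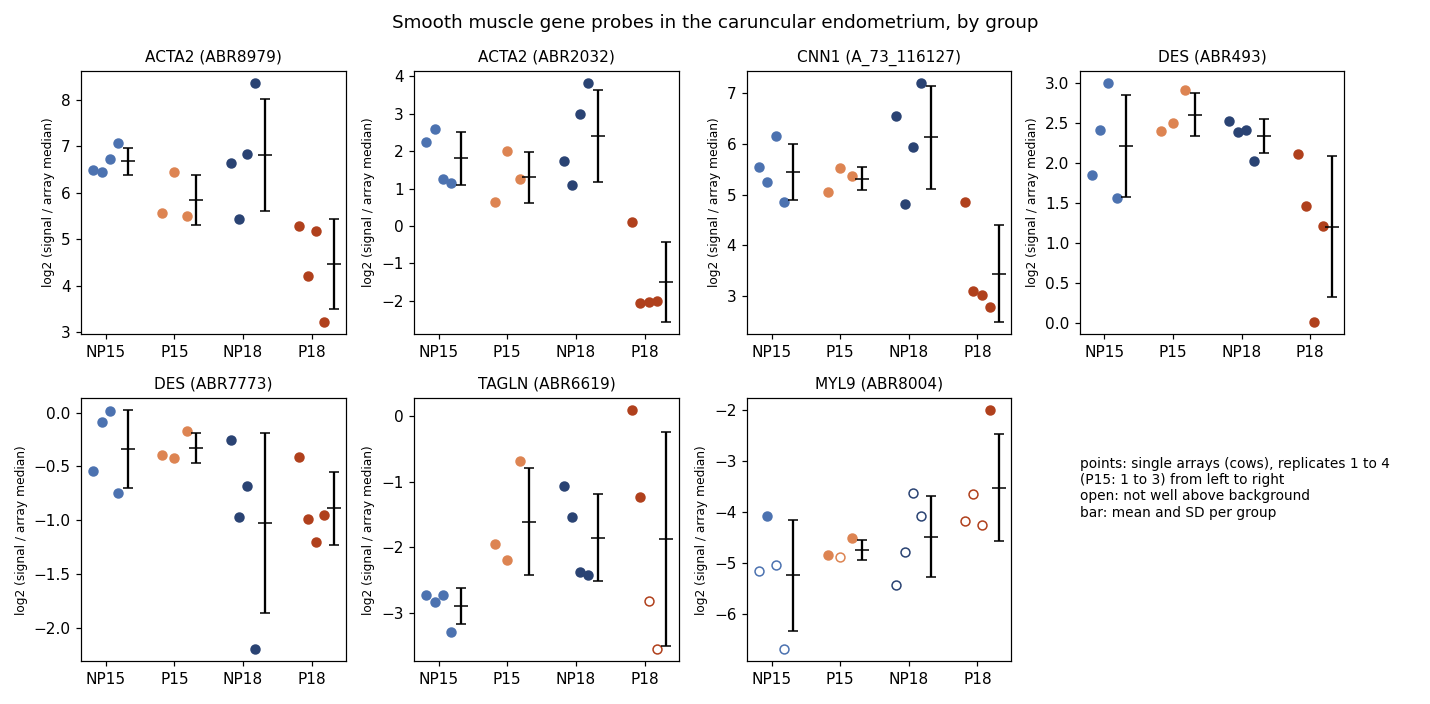
Each panel plots 1 probe, with the group on the x axis and log2 of the signal over the array median on the y axis. Points are single arrays, open points were not well above background, and bars are the mean and SD per group. Both ACTA2 probes have every P18 array below every NP18 array, whereas the groups overlap for the other probes.

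CNN1, which encodes calponin and restrains the myosin motor on actin, had levels of 46.8, 38.0, 71.6 and 28.9 in NP15 and 33.3, 45.8 and 41.6 in P15. On day 18, the levels were 94.1, 28.1, 61.6 and 148 in NP18 and 28.9, 8.62, 8.11 and 6.86 in P18. P18 replicate 1 overlapped NP18 replicate 2, and the other 3 pregnant arrays lay below all non-pregnant arrays of either day. The log2 difference of P18 minus NP18 was -2.69 (SE 0.51), or 6.45-fold lower, and -3.16 without P18 replicate 1. On day 15 it was -0.13 (SE 0.55, limma adjusted p = 0.938, exact permutation p = 0.800), and its sign turned with quantile normalization.

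DES had 2 probes that differed on day 18. The probe with the gene symbol (ABR493) gave levels of 3.60, 5.31, 7.99 and 2.96 in NP15, 5.25, 5.66 and 7.48 in P15, 5.76, 5.22, 5.29 and 4.07 in NP18, and 4.33, 2.75, 1.01 and 2.32 in P18. P18 replicate 1 lay above the lowest NP18 array, and the other 3 lay below all NP18 arrays. The log2 difference of day 18 was -1.13 (SE 0.39) with all arrays and -1.44 without P18 replicate 1. The probe described as a locus similar to desmin (ABR7773) had levels from 0.217 to 0.836 in NP18 (median of 0.568) and from 0.434 to 0.753 in P18 (median of 0.511), with a log2 difference of 0.14 (SE 0.34) that ran from -0.25 without NP18 replicate 4 to 0.40 without NP18 replicate 1. On day 15, the log2 difference was 0.39 (SE 0.42, limma adjusted p = 0.710) with the first and 0.01 (SE 0.37, adjusted p = 0.994) with the second probe.

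TAGLN, a calponin-related protein that cross-links actin, did not follow ACTA2. Its probe, described as similar to transgelin, had levels of 0.150, 0.140, 0.152 and 0.102 in NP15 and 0.258, 0.219 and 0.626 in P15, so that each pregnant array of day 15 lay above each non-pregnant one. Of all 13164 probes tested, 5.93% showed this separation. The log2 difference was 1.29 (SE 0.68) and did not pass the test (limma adjusted p = 0.391, exact permutation p = 0.0571, the smallest it can give). On day 18 the levels were 0.480, 0.346, 0.192 and 0.186 in NP18 and 1.07, 0.425, 0.142 and 0.0848 in P18. P18 replicates 3 and 4 were not well above background. The log2 difference was -0.03 (SE 0.63), and it ran from -0.68 without P18 replicate 1 to 0.53 without P18 replicate 4.

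MYL9 was measured poorly, because its probe was well above background in 1 array of NP15, 2 of P15, 0 of NP18 and 1 of P18. Its levels ran from 0.00966 to 0.0592 in NP15, from 0.0341 to 0.0436 in P15, from 0.0230 to 0.0805 in NP18 and from 0.0524 to 0.250 in P18. The ranges of NP18 and P18 overlapped, and no fold is given for day 18. On day 15 the log2 difference was 0.50 (SE 0.61, limma adjusted p = 0.756).

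On day 15, 0 of the 7 probes passed the call rule of an adjusted p under 0.05 with more than a 2-fold difference, beside 0.798% of all 13164 probes tested. None of the 7 had an unadjusted limma p under 0.05, beside 1956 of all probes, and the methods' unadjusted test called 1, beside 433 of all probes. Day 18 is the contrast on which the genes were selected, so a count there is a description and no test. Both ACTA2 probes and the CNN1 probe were past the same limits in the lower direction, beside 2.1% of all probes. By the brightest probe of each gene, these were 2 of 5 genes. DES (ABR493), at -1.13, was past the fold limit but not the adjusted p limit, and it was past both without P18 replicate 1. The brighter ACTA2 probe was not past them without P18 replicate 2 or replicate 4. When scan day was a random block, 0 of the 7 probes were past the limits on day 18, beside 49 of all 13164 probes. Only the NP15 arrays spanned more than 1 scan day, and this setting left few calls over the whole array. Every P18 array lay below every NP18 array with both ACTA2 probes, a separation that 5.8% of all probes showed.

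**Figure D2:**
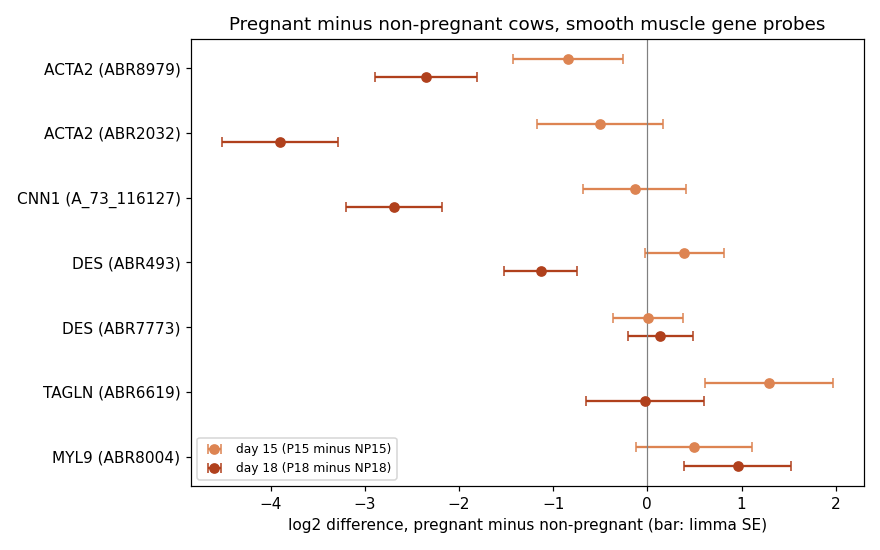
Log2 difference of pregnant minus non-pregnant samples (x axis) for the 7 probes (y axis) on day 15 and day 18, with limma SE as bars. The differences of day 18 are largest for ACTA2 (-3.90 and -2.35) and CNN1 (-2.69), and on day 15 all but TAGLN lie within -0.84 and 0.50.

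Across the 4 groups, the mean log2 level of the brighter ACTA2 probe was 6.82 in NP18, 6.68 in NP15, 5.84 in P15 and 4.47 in P18, in descending order. NP18 and NP15 differed by less than the SD of NP18 (1.20). CNN1 had the same order, with 6.13, 5.45, 5.32 and 3.44, and NP15 and P15 differed by less than their SDs (0.55 and 0.23). The symbol-bearing DES probe had 2.60 in P15, 2.33 in NP18, 2.21 in NP15 and 1.20 in P18, where the first 3 differed by less than the SD of NP15 (0.63). P18 was the lowest group for each of these probes. Every P18 array lay below every P15 array for both ACTA2 probes, CNN1 and this DES probe, a separation that 16.1% of all probes showed. The log2 difference of P18 minus P15 was -1.37 and -2.80 for the 2 ACTA2 probes, -1.88 for CNN1 and -1.40 for DES. That of NP18 minus NP15 was 0.14, 0.60, 0.68 and 0.13. Of the remaining probes, TAGLN (-2.90) and MYL9 (-5.24, mostly not well above background) were lowest in NP15, and the second DES probe (-1.03) in NP18. For TAGLN, MYL9 and this DES probe, P18 minus P15 was -0.27, 1.22 and -0.56, and NP18 minus NP15 was 1.05, 0.76 and -0.69.

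Over the 15 arrays, the gene whose log2 levels were most like those of ACTA2 (ABR8979) was ACTG2, the enteric smooth muscle actin, with a Pearson r of 0.93. It was followed by HYAL2 (0.89), CNN1 (0.87), SYT2 (0.85), FBLN5 (0.85), ACCS (0.85), ESYT1 (0.84), NDP (0.83), PLEKHO1 (0.83) and PLXNA2 (0.82), out of 6403 probes with a gene symbol. The order depended on the probe. With the ACTA2 probe that carried the symbol (ABR2032), r was 0.92 for CNN1, 0.87 for ACCS and 0.85 for ACTG2. It was 0.77 for HYAL2 and 0.64 for NDP. The 15 values share the difference between the groups. Of deviations from the group means, r was 0.82 for ACTG2, 0.83 for HYAL2 and 0.70 for CNN1. The 2 ACTA2 probes had an r of 0.88 with each other, and 0.65 of deviations. Of the other smooth muscle genes, DES (ABR493) had an r of 0.39 with ABR8979 and 0.65 with ABR2032. TAGLN had -0.13 and -0.03. MYL9, not well above background in 11 of the 15 arrays, had -0.58 and -0.37. Only 2 of the 10 genes stayed among the 10 most alike when deviations from the group means were used, and 4 with Spearman's rho.

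**Figure D3:**
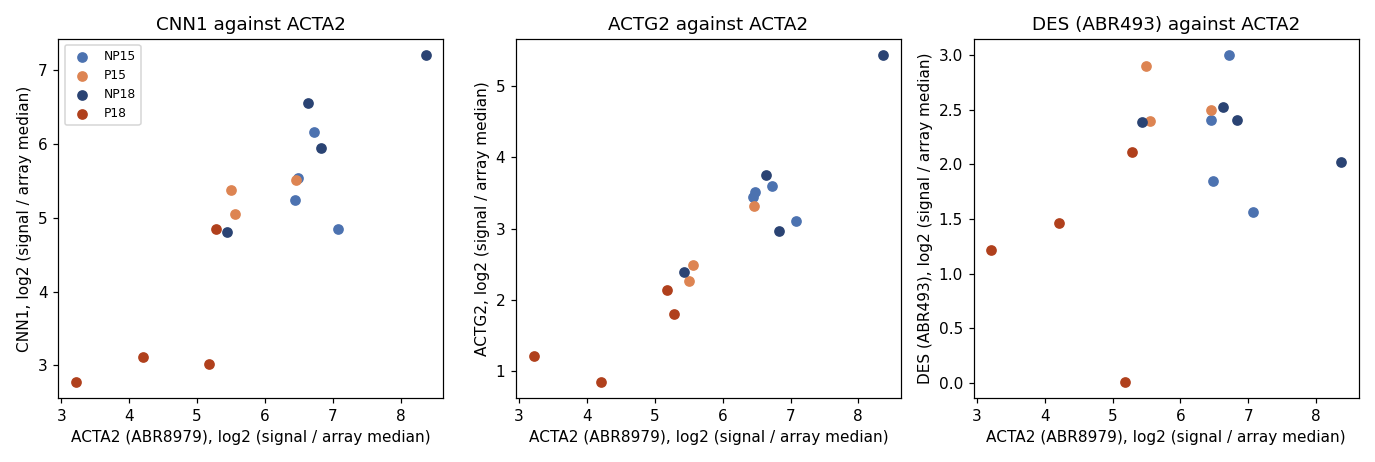
Log2 levels of CNN1, ACTG2 and DES (ABR493) on the y axes against those of ACTA2 (ABR8979) on the x axis, with 1 point per array and 1 color per group. CNN1 (r of 0.87) and ACTG2 (0.93) lie along a line, and DES (0.39) scatters more.

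The wider contractile pathway was described with a list of 119 genes, of which 84 had a probe and 79 were tested. These were 18 filament genes, 20 genes of anchoring and intermediate filaments, 26 of calcium and signaling control and 15 of transcription control. On day 18, 4 of the 79 genes were called lower in pregnant samples and 0 were called higher, beside 2.1% called lower and 3.65% called higher of all probes. The median log2 difference of the 79 genes was -0.29, with 57 below 0, and that of all probes tested was 0.07. The 4 genes were ACTG2 among the filament genes and FLNA, FHL2 and CAVIN1 among the anchoring genes, whereas 0 of 26 control genes and 0 of 15 transcription genes passed.

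ACTG2 had levels of 13.5, 5.23, 7.84 and 43.2 in NP18 and 3.49, 1.81, 4.40 and 2.32 in P18. All pregnant arrays of day 18 lay below all non-pregnant ones, with a log2 difference of -2.13 (SE 0.51, limma adjusted p = 0.0230). FLNA, which encodes filamin and links actin to membranes, had levels from 0.316 to 0.634 in NP18 and from 0.104 to 0.256 in P18, and its log2 difference was -1.45 (SE 0.29, adjusted p = 0.00881). FHL2, a LIM-domain cofactor, had levels from 3.24 to 4.73 in NP18 and from 0.678 to 2.37 in P18, and fell by 1.54 on the log2 scale (SE 0.34, adjusted p = 0.0156). CAVIN1, a coat protein of caveolae, had levels of 0.428, 0.649, 0.981 and 1.91 in NP18 and 0.436, 0.235, 0.339 and 0.173 in P18, with a log2 difference of -1.61 (SE 0.40, adjusted p = 0.0283). The groups overlapped in CAVIN1 and not in the other 3 genes, a separation that 5.8% of all probes showed. The 4 genes were named for their calls in this same contrast, so the separation adds no support. The call of CAVIN1 was lost without any 1 of NP18 replicates 3 and 4 and P18 replicates 2, 3 and 4, and that of ACTG2 without P18 replicate 2 or 4. When scan day was a random block, 0 genes passed, beside 49 of all 13164 probes, with adjusted p from 0.477 to 0.686 for these 4.

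The largest difference in the list was that of OXTR, the oxytocin receptor that couples oxytocin to uterine contraction, which is named after its values were seen. Its log2 difference was -3.11 (SE 1.28) and did not pass in the main setting (limma adjusted p = 0.156). With array weights it passed (-4.47, limma adjusted p = 0.00412), a setting that called 1344 of all 13164 probes. The levels in NP18 were 0.281, 46.3, 40.6 and 74.4, and those in P18 were 2.16, 0.752, 3.56 and 1.22. NP18 replicate 1 alone lay below the pregnant arrays, and the log2 difference ran from -4.99 without it to -2.31 without NP18 replicate 4. Leaving out an array for its own OXTR level makes no test.

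On day 15, 1 of the 79 genes was called, lower in pregnant samples, beside 0.448% of all probes called lower and 0.349% called higher. This was ITGA5, a fibronectin receptor subunit, with levels of 1.97, 1.80, 1.21 and 1.03 in NP15 and 0.493, 0.656 and 0.769 in P15. Its log2 difference was -1.20 (SE 0.26, limma adjusted p = 0.0431), and the adjusted p ran from 0.00161 to 0.546 over the alternatives. On day 18 its log2 difference was 0.08 (SE 0.24, adjusted p = 0.879). The median of the 79 genes on day 15 was 0.02, beside -0.06 for all probes.

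The test of the difference between the 2 days called 1 gene of the list, VIM, beside 2.72% of all probes. This call was lost when scan day was a random block (limma adjusted p = 0.618), where 0 of all 13164 probes were called. It was also lost without P15 replicate 1, P15 replicate 3 or P18 replicate 2. VIM, the intermediate filament protein of mesenchymal cells, had levels from 16.3 to 29.6 in NP15 and from 34.2 to 56.9 in P15, and from 30.6 to 59.5 in NP18 and from 15.7 to 33.8 in P18. The pregnancy difference was 1.14 (SE 0.31, limma adjusted p = 0.112) on day 15 and -0.91 (SE 0.29, adjusted p = 0.0746) on day 18. Neither passed in the main setting. That of day 18 passed with quantile normalization (limma adjusted p = 0.0221), array weights (0.0101) and without NP18 replicate 1 (0.0448). These settings called 825, 1344 and 1043 of all 13164 probes on day 18. The day 18 value minus the day 15 value was -2.05 (SE 0.43, adjusted p = 0.0251). For ACTG2 it was -1.40 (SE 0.75, adjusted p = 0.323).

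**Figure D4:**
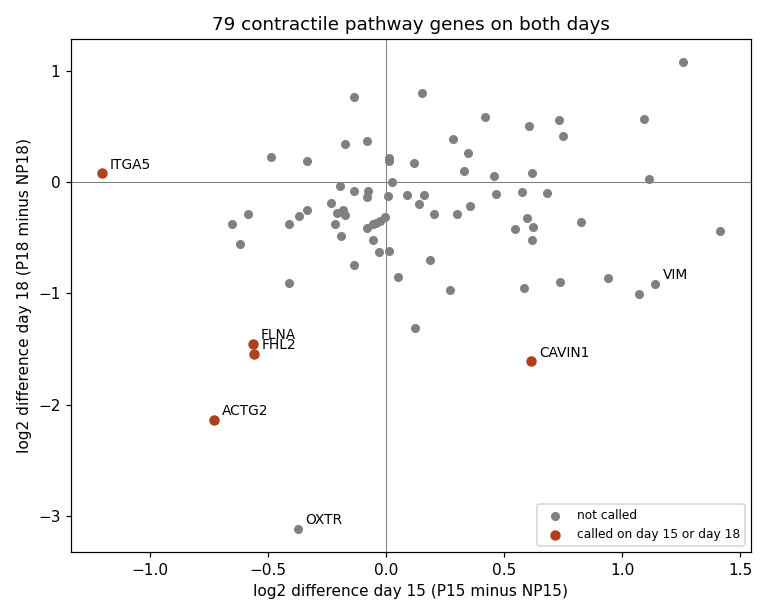
Each point is 1 of the 79 pathway genes, with its log2 difference of pregnant minus non-pregnant samples on day 15 (x axis) and on day 18 (y axis). The genes called on either day are colored and named, and OXTR and VIM are named too. ITGA5 lies at -1.20 on day 15, and the 4 genes called on day 18 lie between -2.13 and -1.45 on the y axis.

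Paralogues of the smooth muscle genes with a probe (13 of the 16 considered) showed no call on day 18 other than ACTG2 in the main setting. The cytoplasmic actins ACTB and ACTG1 had log2 differences of -0.08 (SE 0.26) and -0.30 (SE 0.25), the cardiac actin ACTC1 0.19 (SE 0.69) and the skeletal actin ACTA1 -0.86 (SE 0.63), with ACTA1 not well above background in any P18 array. The non-muscle relatives CNN2 and CNN3 of calponin had -0.70 (SE 0.36) and -0.11 (SE 0.23), and TAGLN2 and TAGLN3 had -0.63 (SE 0.32) and -0.13 (SE 0.41). The light chain MYL6 had 0.22 (SE 0.22), and the non-muscle myosin heavy chains MYH9 and MYH10 had -0.56 (SE 0.33) and -0.37 (SE 0.31). The lowest limma adjusted p among these 12 other paralogues, VIM included, was 0.0746. The signs of ACTC1, ACTB, CNN3, TAGLN3 and MYL6 turned under at least 1 alternative.

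Between the days, 5 genes of the list were called higher and 1 lower in NP18 than in NP15, beside 2.89% and 4.26% of all probes. The count was 0 when scan day was a random block (limma adjusted p of the genes named here from 0.0910 to 0.333), 0 with only the 2 groups compared, and 2 without NP18 replicate 4. These settings called 54, 157 and 616 of all 13164 probes, beside 942 in the main setting. PRRX1, a transcription factor of mesenchyme, rose by a log2 difference of 1.33 (SE 0.29, limma adjusted p = 0.0126), and CAVIN1 by 1.58 (SE 0.40, adjusted p = 0.0237). VIM rose by 1.03, and ITGA5 fell by 1.42 on the log2 scale. In pregnant samples 5 genes were called lower and 0 higher on day 18 than on day 15, beside 4.31% and 7.58% of all probes. They were GNA11, PLCB1, KCNMB1, FLNA and VIM. None of the 5 calls held when scan day was a random block (limma adjusted p from 0.206 to 0.403), and the count was 1 without P15 replicate 1, P15 replicate 3 or P18 replicate 4. These settings called 0, 737, 784 and 1298 of all 13164 probes, beside 1566 in the main setting. GNA11, the G protein alpha subunit upstream of phospholipase C, fell by 1.17 on the log2 scale (SE 0.23, adjusted p = 0.00649). FLNA and VIM both fell by 1.02 on the log2 scale. KCNMB1, a subunit of the calcium-activated potassium channel of smooth muscle, was at least 2.50-fold lower, and PLCB1, a phospholipase C, at least 1.25-fold lower. These are bounds because neither was well above background in any P18 array. Their calls (limma adjusted p = 0.0240 and 0.0233) rest on the measured P18 values and not on the bounds. The bound of PLCB1 does not reach 2-fold. Scaling to the 75th percentile moved the median difference of all probes from 0.12 to -0.18 for P18 minus P15, and from 0.02 to -0.10 for NP18 minus NP15. Relative to the median of all probes in the main scaling, the log2 difference of GNA11 for P18 minus P15 was -1.29. GNA11 was also lower in NP18 than in NP15, with a log2 difference of -0.84 (limma adjusted p = 0.0250) that did not reach the 2-fold limit. For this gene, the test of the difference between the 2 days gave -0.33 (adjusted p = 0.612).

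The levels of other cell types are given beside the decrease of ACTA2 and CNN1 on day 18. Of all probes tested, 2.1% were called lower and 3.65% higher in P18 than in NP18, with a median log2 difference of 0.07. Of 12 endothelial genes tested, 2 were called lower in P18 than in NP18, PECAM1 (-1.54) and TIE1 (-1.87), with a median log2 difference of -0.67 and 11 below 0. Among 7 pericyte genes 1 was called lower, NDUFA4L2 (-2.22), with a median of -0.73, and RGS5, a defining pericyte gene, had -0.25 (limma adjusted p = 0.752). Of 10 stromal fibroblast genes 3 were called lower, namely COL1A1 (-1.97), MMP2 (-1.22) and POSTN (at least 4.53-fold lower), with a median of -0.51, whereas DCN had 0.16 (adjusted p = 0.747). The median was -0.35 for 11 epithelial genes and 0.11 for 9 leukocyte genes, and 0 of either were called. Of 8 trophoblast genes 6 were called higher, with TKDP4 at least 271-fold higher, and ELF5 was called lower. Of 11 skeletal and cardiac muscle genes 0 were called, and CKM, TTN, NEB, TNNT2 and MYH1 were not well above background in any array. Their part in the ACTA2 and CNN1 values was not tested.

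In each group, epithelial and stromal genes were present, as the labeled tissue would have them. All but 1 of the 11 epithelial and all but 1 of the 10 stromal genes were well above background in all 15 arrays. The summed level of the 10 stromal genes ran from 725 to 1223 in NP18 and from 674 to 927 in P18, and that of the 12 endothelial genes from 58.7 to 125 and from 52.2 to 82.0. Both ranges overlapped between the groups. The summed level of the 5 smooth muscle genes ran from 76.9 to 482 in NP18 and from 18.8 to 73.3 in P18, and did not overlap. This sum consists mostly of ACTA2 and CNN1, the genes with the largest decreases. The mean log2 level over the 5 genes did overlap, with 1.63 in P18 replicate 1 and from 1.26 to 2.22 in NP18, and from 0.23 to 0.78 in the other 3 P18 arrays. The highest P18 sum, 73.3, was that of replicate 1, which had the lowest trophoblast sum, and the lowest, 18.8, was that of replicate 4, which had the highest. The part of trophoblast RNA in these values was not tested.

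**Figure D5:**
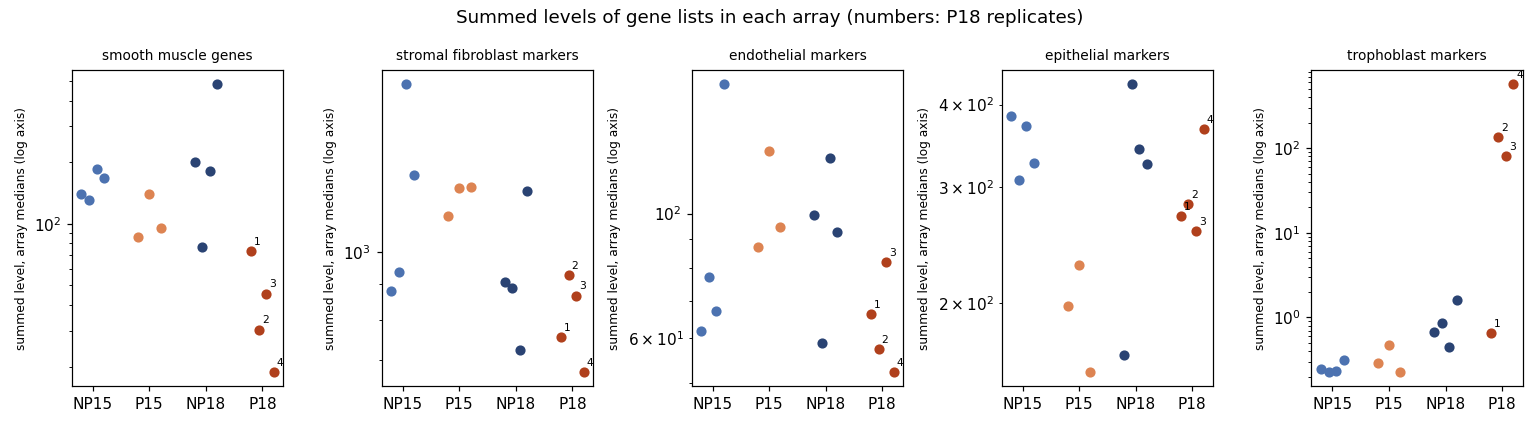
Summed level of the brightest probes of 5 gene lists in each array (y axis, log scale, in array medians) by group (x axis), with the P18 arrays numbered by replicate. The smooth muscle sum is lowest (18.8) and the trophoblast sum highest (573) in P18 replicate 4. The trophoblast sum of P18 replicate 1 (0.647) lies within the range of NP18 (0.452 to 1.60). These sums include ELF5, which was well above background in all 4 NP18 arrays.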

How the data were processed

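The authors' Feature Extraction 9.5 software (per the labels and methods) gave each spot a background-subtracted, detrended intensity on a linear scale, and the deposited scanner tables hold these intensities with nothing scaled between arrays. The authors' deposited log2 table of the same arrays used another scaling, within -0.0126 and -0.00519 of log2 of the 75th percentile, and served as an alternative. Intensities were divided by the array median and taken to log2, without controls and outlier spots. The 13164 of 15208 probes that 3 or more of the 15 arrays measured well above background were fitted with limma 3.58.1 in R 4.3.3, with 1 mean per group and Benjamini-Hochberg adjustment. The procedure was tested on simulated data. The number of arrays limits the precision.

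Gene symbols came from the files and the RefSeq table of ARS-UCD2.0. The members, gene lists and tests were chosen with earlier results of these data known. Named were the members, called pathway genes (at most 12 on day 18 and 5 between days), the paralogues, and the 10 genes most like ACTA2. A gene that this rule names is not reported here. Alternatives were other scalings, background corrections, filters, variances, blocks and tests, and leaving out each array. Tables and figures used Python 3.11.15, pandas 2.3.3, numpy 2.4.6 and matplotlib 3.10.9.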

Additional observations from a re-analysis of the deposited data

Results flagged for a closer look

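A sample lay far from the other 3 of its group in 7 of 87 groups of 4 arrays examined, measured as its gap to the nearest array over the range of the group on the log2 scale, against Dixon's critical value. Chance alone gives about 1 such group in 20. In P18, replicate 1 was far above the others for ACTA2 (ABR2032, a gap of 0.967 of the range) and CNN1 (0.841), and replicate 3 for CNN2 (0.928). ITGA5 in NP18 had a gap of 0.945, with replicate 3 above the others. ACTG1 in NP15 had 0.945, with replicate 1 above. ACTC1 had 0.907 in NP15, with replicate 4 below, and 0.894 in NP18, with replicate 1 above.

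For VIM, the pregnancy difference of day 18 was lower than that of day 15 by the test of the difference itself, with a value of -2.05 on the log2 scale. It was not called when scan day was a random block (adjusted p = 0.618), where 0 of all 13164 probes were called. Nor was it called without P15 replicate 1 (0.0786), P15 replicate 3 (0.0658) or P18 replicate 2 (0.0538).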

How the results depend on the processing

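Over 17 kinds of alternatives, no tested value changed sign apart from those named here, and of the untested day 18 values of the smooth muscle probes those of TAGLN and the second DES probe did. When scan day was a random block, 0 of the smooth muscle probes were past the limits on day 18, and 0 genes of the pathway list were called in each of the 5 contrasts. Of all 13164 probes, this setting called 0 on day 15, 49 on day 18 and 54 for NP18 minus NP15. It called 0 for P18 minus P15 and 0 for the interaction. The methods' unadjusted test called 1 smooth muscle probe on day 15 and 3 pathway genes. On day 15 this test called 433 of all 13164 probes. With adjustment, 0 smooth muscle probes were past the limits on day 18. The adjusted test called 0, 0, 0 and 2 pathway genes on day 15, on day 18, for NP18 minus NP15 and for P18 minus P15. Of all probes it called 0, 188, 137 and 1451. With each array left out in turn, 0 smooth muscle probes were called on day 15, and from 2 to 4 were past the limits on day 18. The day 18 counts of these probes describe the contrast on which the genes were selected and are no test. The pathway count ran from 0 to 4 on day 15 (4 without NP15 replicate 3), from 2 to 6 on day 18 (2 without P18 replicate 2 or 4), from 0 to 5 for the interaction, from 2 to 9 for NP18 minus NP15 and from 1 to 6 for P18 minus P15. The count of all probes called also moved, from 4 to 344 on day 15 (344 without NP15 replicate 3) and from 428 to 1043 on day 18. It ran from 59 to 549 for the interaction, from 616 to 1565 for NP18 minus NP15 and from 737 to 1730 for P18 minus P15. On day 15, the 1 pathway gene became 0 with 75th percentile scaling, the authors' table, trend and robust variances, only the 2 groups compared, or the slide as a random block, 3 with quantile normalization or normexp, 2 with no filter or a filter on all arrays, and 6 with array weights. Of all probes, the main setting called 105, and those that gave 0 genes called 93, 93, 93, 2 and 52, in the order named. Quantile normalization called 134, normexp 107, no filter 118 of 15208, the filter on all arrays 110 of 9572 and array weights 853. On day 18, the 4 genes became 8 with quantile normalization and 2 with only the 2 groups compared, while the count of all probes went from 757 to 825 and 477. For the interaction, the 1 gene became 3 with 75th percentile scaling, the authors' table or the filter on all arrays, 4 with quantile normalization or normexp, and 8 with array weights. The count of all probes went from 358 to 280, 281, 361 (of 9572), 463, 399 and 1332, in the order named. For NP18 minus NP15, the 6 genes became 3 with quantile normalization and 0 with only the 2 groups compared, while the count of all probes went from 942 to 914 and 157. For P18 minus P15, the 5 genes became 8 with 75th percentile scaling, the authors' table, no filter or no fold limit, 11 with array weights, 3 with the slide as a random block and 2 with the filter on all arrays. The count of all probes went from 1566 to 1648, 1639, 3080 (of 15208), 2158, 2408, 1303 and 1118 (of 9572), in the order named. The list most like ACTA2 shared 4 of 10 genes with Spearman's rho and 2 of 10 with deviations from the group means.

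The deviations of same-numbered samples from their group means had an r from -0.0273 to 0.304 on day 15 and from -0.125 to 0.0433 on day 18. Such values cannot settle whether samples were paired. The labels do not say what the replicate numbers mark, and no pairs were assumed. With the replicate block, 3 smooth muscle probes were past the limits on day 18, as a description, beside 614 of all 13164 probes. On day 15 limma called 0 smooth muscle probes and 0 pathway genes with this block, beside 8 of all probes.

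Small differences changed sign. On day 15, CNN1 (-0.13) became 0.056 with quantile normalization or normexp and ran from -0.33 to 0.10 when 1 array was left out. MYL9 became -0.12 with array weights. The second DES probe became -0.11 with array weights and -0.17 with the replicate block, and ran from -0.12 to 0.13. On day 18, leaving out 1 array gave ranges from -0.17 to 1.10 for ACTC1, from -0.21 to 0.14 for ACTB, from -0.26 to 0.038 for CNN3 and from -0.61 to 0.16 for TAGLN3. With array weights CNN3 was 0.0042 and TAGLN3 0.30, and MYL6 was -0.020 with quantile normalization or normexp. Weak signals limit TAGLN and MYL9, whose probes were not well above background in 2 and 11 of the 15 arrays.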
